A study of Mus musculus with 6 samples.

Results

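The endoderm regulators Foxa1, Foxa2, Foxa3, Sox17, Sox7, Gata4, Gata6, Hhex, Hnf4a and Dab2 were followed in mouse cells leaving the embryonic stem cell state, with and without a histone deacetylase inhibitor. They were found as every non-control probe whose RefSeq identifier belongs to 1 of these symbols, which gave 19 probes for all 10 genes, among 41174 probes and 18749 named genes on the array. The cells came from embryonic stem cells of strain 129/Ola plated on gelatin and differentiated without serum in N2B27, which favours neural fates. One group was labelled as day 3 cells treated for 24 h with trichostatin A (TSA), and the other as day 3 cells treated for 24 h with the solvent DMSO; the labels give no TSA dose and no genetic change in either group. Each treatment had 3 samples, stated to be independent experiments, and total RNA of each was hybridised to 1 single-colour Agilent array. A TSA and a DMSO sample with the same number shared a slide, and experiment 1, 2 or 3 below means such a pair, although the labels do not say that its samples came from the same culture.

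Definitive endoderm is the layer of the gastrula that forms the gut, liver and pancreas, and visceral endoderm is the extraembryonic layer that feeds and patterns the early embryo. The FOXA proteins are forkhead pioneer factors that open chromatin at endoderm enhancers, SOX17 and SOX7 are SOX factors of definitive and primitive endoderm, and GATA4 and GATA6 are zinc-finger factors that drive primitive endoderm in the blastocyst and take part again in the gut and heart. HHEX is a homeodomain repressor of anterior endoderm, HNF4A a nuclear receptor of visceral endoderm and liver, and DAB2 an endocytic adaptor of visceral endoderm. Nodal signalling is the main inducer of definitive endoderm.

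Levels are log2 values of the processed signal relative to the 75th percentile of the same array, so that 0 is the level of that percentile. TSA was at position 4 and DMSO at position 3 of every slide, so treatment cannot be told apart from position, nor experiment from slide. The 75th percentile was 311 to 885 intensity units on the TSA arrays and 632 to 926 on the DMSO arrays, 61.1% to 72.3% of the spots on an array were well above background, and 0 were saturated. The TSA array of experiment 2 was the dimmest, and its levels correlated with those of the other arrays at 0.912 to 0.945, against 0.975 or more among the other 5. Its added control RNAs lay 3.32 above the 75th percentile, against 1.90 on the DMSO array of its slide and 1.25 to 1.76 on the other arrays. Results that rest on that array are given beside the value of the DMSO array of the same experiment. RNA came from whole cultures, so fewer cells of a type and less RNA per cell cannot be told apart.

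No endoderm regulator passed the test between TSA and DMSO. Of 10 members tested, 0 rose and 0 fell (limma, adjusted p 0.324 to 0.948), where 1.36% of all 14526 tested genes rose and 0.0551% fell. The median difference of the members was 0.27 on the log2 scale, against 0.08 over all tested genes, and 7 of the 10 had a higher mean in TSA, against 58.1% of all tested genes. The TSA level of Foxa3, Gata4, Hhex and Dab2 was the higher one on all 3 slides, Foxa2 was lower on each, and the other 5 differed in sign between slides. Over all tested genes, 32.6% were higher on each slide and 21.5% lower, so 4 and 1 of 10 are shares near the background. The median of the members was 0.06 with normexp background correction, and it was 0.30 on slide 1, 0.35 on slide 2 and 0.14 on slide 3. The replicate numbers pair the arrays by slide, and a fit with slide as a block also passed 0 members (adjusted p 0.0657 to 0.697), against 3.19% of tested genes that rose and 0.145% that fell.

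**Figure D1:**
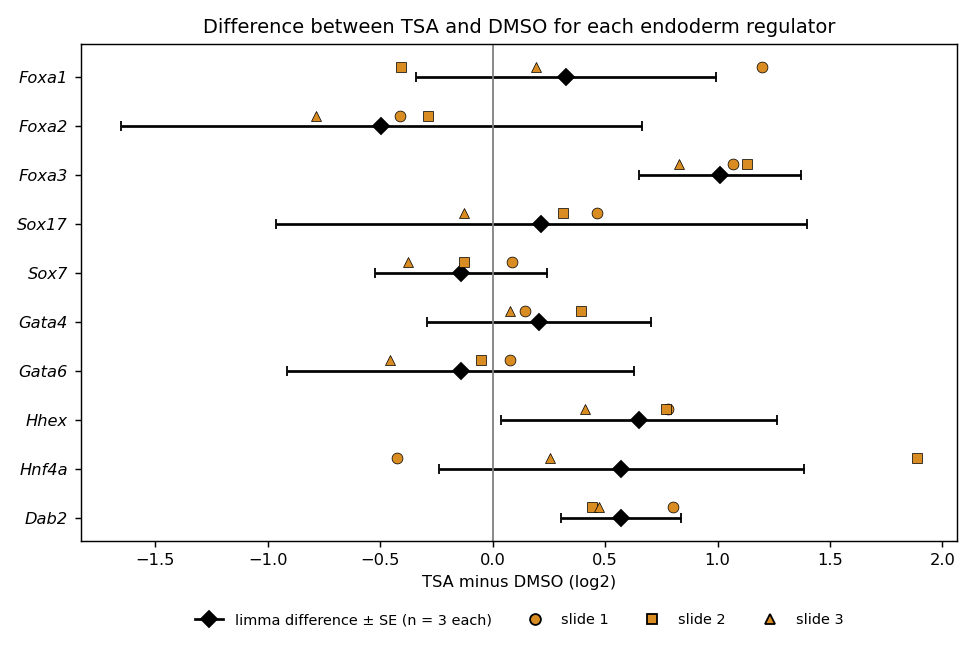
Difference between TSA and DMSO (x axis, log2) for each endoderm regulator. Black diamonds with bars are the limma difference and its standard error (3 arrays per group), and orange symbols are the difference within slides 1, 2 and 3. Foxa3, Gata4, Hhex and Dab2 lie to the right of 0 on every slide, and the bars of Foxa2 and Sox17 are the widest.

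Most members were highest in experiment 2, although the test of the experiment called none of them. In 8 of the 10 members both arrays of experiment 2 lay above all 4 other arrays, the exceptions being Foxa3 and Dab2, and 22.8% of all tested genes did so. Of the 8 members above background on all 6 arrays, 6 did so, against 23.4% of such genes, a count added after the values were seen. The pattern also occurs without a detected signal, in 14.5% of the 9907 probes above background on 0 arrays, among them a Sox17 and an Hnf4a probe; Gata4 and Hnf4a, which count among the 8 of 10, were above background on 4 and 3 of the 6 arrays. In 6 of the 10, the arrays of both treatments had the order experiment 2, then 3, then 1, against 9.63% of tested genes. Gata4 is among these 6, although its probe was not well above background on either array of experiment 1. The experiment means of a member, averaged over TSA and DMSO, spanned a median of 1.83 on the log2 scale, against 0.56 for all tested genes. With normexp background correction the span was 0.57 for the members and 0.35 for all tested genes, and the values deposited by the authors gave 1.26 and 0.47. The test of the experiment term called 0 of 28158 probes and so 0 members: the members' adjusted p ran from 0.169 to 0.304 (limma F test, 2 arrays per experiment), and the lowest over all probes was 0.0552. At an unadjusted p under 0.05, 9 of the 10 members and 17.3% of all tested genes were counted. The call depended on single arrays: with any 1 of the 6 arrays left out, which leaves 1 residual degree of freedom, 2 to 9 members were called among 210 to 17251 probes. Without TSA array 2, 2 members (Foxa2 and Sox17) were called beside 210 of the 28158 probes. There were 6 members without TSA array 1, TSA array 3 or DMSO array 3, where 1808, 1225 and 1937 probes were called. There were 5 without DMSO array 1, where 3107 probes were called. There were 9 without DMSO array 2, where 17251 probes, most of all probes, were called.

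**Figure D2:**
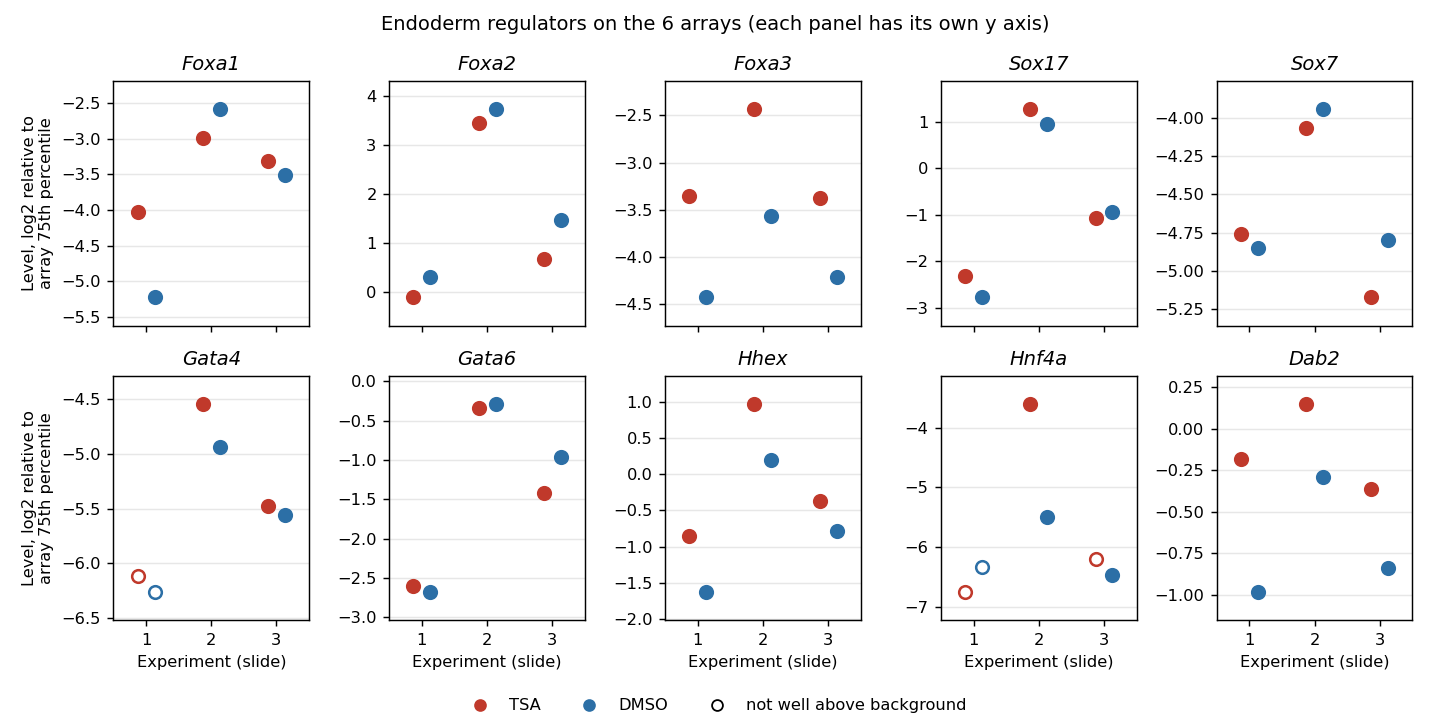
Level of each endoderm regulator (y axis, log2 relative to the 75th percentile of the array, with its own scale in each panel) by experiment (x axis), with TSA in red left of DMSO in blue. Open circles are arrays on which the probe was not well above background. Foxa2, Sox17, Gata6 and Hhex have both points of experiment 2 at the top and both points of experiment 1 at the bottom.

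Among the FOXA genes, Foxa2 carried the clearest difference between experiments and Foxa3 the most even difference between treatments. Foxa2, a regulator of endoderm, node, notochord and floor plate, stood at -0.12, 3.44 and 0.68 on TSA arrays 1, 2 and 3, and at 0.30, 3.73 and 1.46 on DMSO arrays 1, 2 and 3. The treatments overlap widely, and each experiment's pair lies closer together than the experiments do. TSA minus DMSO was -0.50 ± 1.16 (limma standard error, n = 3, adjusted p = 0.875), and -0.41, -0.29 and -0.78 on slides 1, 2 and 3. In the limma fit with slide as a block, its standard error was 0.20 (unadjusted p = 0.0520, adjusted p = 0.259). Without both arrays of slide 2 the difference was -0.60 ± 0.48 (adjusted p = 0.571). The experiment means of Foxa2 were 0.09, 3.59 and 1.07, a span of 3.5 or 11.3-fold, which 0.151% of tested genes exceeded (F = 114, unadjusted p = 6.55e-05, adjusted p = 0.169). With normexp background correction the span was 3.16, and with the values deposited by the authors 3.31. Foxa2 was read by 1 probe spotted 10 times on each array.

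Foxa1, which overlaps with Foxa2 in liver and gut, stood at -4.03, -3.0 and -3.32 on TSA arrays 1, 2 and 3, and at -5.23, -2.59 and -3.51 on the DMSO arrays. DMSO array 1 was the lowest and DMSO array 2 the highest, so the DMSO arrays enclose the TSA arrays. The difference was 0.33 ± 0.67 (adjusted p = 0.854) and changed sign between slides, at 1.20, -0.41 and 0.19. Its experiment means spanned 1.83 (adjusted p = 0.276). On the TSA arrays alone, experiment 2 was 0.67 above the mean of the others, a value that 32.8% of tested genes exceeded, and on the DMSO arrays it was 1.78 above, which 0.750% exceeded.

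Foxa3, the FOXA gene that comes on last in the gut and is strongest in liver, was the only member whose treatments did not overlap. Its levels were -3.36, -2.44 and -3.38 on TSA arrays 1, 2 and 3, and -4.43, -3.57 and -4.21 on the DMSO arrays. TSA was higher by 1.07, 1.13 and 0.83 on the 3 slides, and by 1.01 ± 0.36 in the fit (2.01-fold, unadjusted p = 0.0278, adjusted p = 0.324, and 0.0657 with slide as a block). With normexp background correction the difference was 0.39, and with the values deposited by the authors 0.72. Of all tested genes, 16.4% had every TSA array above every DMSO array, 8.29% every TSA array below, and 14.9% had an unadjusted p under 0.05, so 1 of 10 members is not above that share. Its experiment means spanned 0.89.

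The bases before the annotated start of Foxa1, Foxa2 and Hnf4a are shown because these members differed most between experiments among those with a promoter in the RefSeq table, and hold a match to a motif of the GATA or FOXA factors among the members. Each line gives 250 bases up to the start, 5′ to 3′ on the strand of the gene, in build GRCm38.p6, with the matching bases in capitals.
Foxa1 chr12:57546112-57546361, minus strand: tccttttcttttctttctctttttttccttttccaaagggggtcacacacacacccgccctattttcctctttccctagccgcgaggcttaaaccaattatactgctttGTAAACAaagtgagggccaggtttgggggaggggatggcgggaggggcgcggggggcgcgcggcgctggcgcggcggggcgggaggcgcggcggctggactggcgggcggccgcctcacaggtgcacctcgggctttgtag
Foxa2 chr2:148045465-148045714, minus strand: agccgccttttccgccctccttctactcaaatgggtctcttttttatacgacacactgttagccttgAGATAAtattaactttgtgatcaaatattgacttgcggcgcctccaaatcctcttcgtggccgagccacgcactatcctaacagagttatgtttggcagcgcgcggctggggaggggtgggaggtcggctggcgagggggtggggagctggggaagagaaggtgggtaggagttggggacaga
Hnf4a chr2:163506607-163506856, plus strand: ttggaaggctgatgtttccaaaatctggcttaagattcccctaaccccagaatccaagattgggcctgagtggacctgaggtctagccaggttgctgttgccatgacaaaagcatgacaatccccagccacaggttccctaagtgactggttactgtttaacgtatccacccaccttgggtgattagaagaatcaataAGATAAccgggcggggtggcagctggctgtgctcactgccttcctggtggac

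The search covered both strands for AGATAA and TGATAA of GATA factors, TGTTTAC and TGTTTGC of forkhead factors, ACAATG of SOX factors and CAAAGTC of HNF4; none of these overlapped another in the windows shown. The capitals are TGTTTAC on the opposite strand, at position -141 of Foxa1, and AGATAA at position -183 of Foxa2 and at position -52 of Hnf4a, counted from the start. Of 32851 promoter windows of this length, 3.17% hold TGTTTAC and 9.99% hold AGATAA. The table held 10 windows for 6 of the members, since Foxa2 has 3 starts in it and Hnf4a and Dab2 have 2 each. Dab2 had TGATAA in 1 window, which 7.94% of windows hold. The windows of Foxa3 and Hhex, and the other windows of Foxa2, Hnf4a and Dab2, held none of the 6 motifs. Each share is for 1 motif in 1 window, while 6 motifs were searched in 10 windows. A match describes the letters and is not evidence of binding.

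Both SOX genes were highest in experiment 2. Sox17, a marker and driver of definitive endoderm, stood at -2.32, 1.27 and -1.06 on TSA arrays 1, 2 and 3, and at -2.78, 0.95 and -0.94 on the DMSO arrays. As with Foxa2, experiment 1 was lowest and experiment 2 highest in both treatments. TSA minus DMSO was 0.22 ± 1.18 (adjusted p = 0.948), and 0.46, 0.31 and -0.13 on slides 1, 2 and 3. The experiment means of -2.55, 1.11 and -1.0 spanned 3.66, or 12.6-fold, and 0.103% of tested genes had a larger span (F = 107.5, unadjusted p = 7.50e-05, adjusted p = 0.169). With normexp background correction the span was 2.78, and with the values deposited by the authors 3.47. A further Sox17 probe gave the same order with a span of 3.06. The remaining probe was not well above background on any array. It was highest on both arrays of experiment 2, as were 14.5% of the probes above background on 0 arrays, so it adds no reading of Sox17.

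Sox7, a relative of Sox17 in primitive endoderm and blood vessels, was at -4.76, -4.07 and -5.17 on TSA arrays 1, 2 and 3, and at -4.85, -3.94 and -4.80 on the DMSO arrays. Experiment 2 was again highest in both treatments, by 0.90 in TSA and 0.88 in DMSO over the mean of the other arrays, and experiment 3 did not lie above experiment 1 in TSA. The difference between treatments was -0.14 ± 0.38 (adjusted p = 0.894). The third SOX gene of this subgroup, Sox18, a gene of blood and lymph vessels, gave 1.28 ± 0.51 (adjusted p = 0.389), with -3.03, -2.31 and -2.95 on the TSA arrays and -5.18, -3.36 and -3.60 on the DMSO arrays.

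Gata6 followed the experiments on its brightest probe, with -2.60, -0.34 and -1.42 on TSA arrays 1, 2 and 3, and -2.68, -0.29 and -0.96 on the DMSO arrays. The treatments of an experiment differed by less than 0.5, at 0.08, -0.05 and -0.46 on the 3 slides, and the fit gave -0.14 ± 0.77 (adjusted p = 0.948). The experiment means spanned 2.33, or 5.01-fold (F = 46.3, unadjusted p = 5.77e-04, adjusted p = 0.169). The probes of Gata6 disagreed in part: another gave -0.16 ± 0.80 with a span of 2.36, and the remaining one gave 0.48 ± 0.52 with a span of 1.39, and its lowest experiment was experiment 3. The mean over its probes gave 0.06 for TSA minus DMSO, so the sign of the treatment difference depends on the probe.

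Gata4 lay near background. Its reported probe was at -6.12, -4.54 and -5.48 on TSA arrays 1, 2 and 3, and at -6.27, -4.94 and -5.56 on the DMSO arrays, and was not well above background on either array of experiment 1. The difference between treatments was 0.21 ± 0.50 (adjusted p = 0.879). The other Gata4 probe, spotted 10 times, was well above background only on the arrays of experiment 2, at -4.23 in TSA and -5.20 in DMSO, and was not tested. On both probes the arrays of experiment 2 were the highest. Among relatives and cofactors, Gata5 was above background on 1 TSA array and 0 DMSO arrays, and Gata1, a blood factor, gave 1.57 ± 0.40 (adjusted p = 0.158, and 0.0363 with slide as a block), but 0.38 with normexp and 0.96 with the authors' values. Zfpm1, which encodes a GATA cofactor, gave 1.71 ± 0.48 (adjusted p = 0.193). Neither belongs to the endoderm regulators. Over the 10 tested relatives and cofactors 0 rose or fell without the block and 1 rose with it, against 3.19% of all tested genes.

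Hhex was brightest on 1 of its 2 probes, at -0.85, 0.97 and -0.37 on TSA arrays 1, 2 and 3, and at -1.63, 0.20 and -0.78 on the DMSO arrays. TSA was higher within every experiment, by 0.78, 0.77 and 0.41, while the treatments as groups overlapped, and the fit gave 0.65 ± 0.61 (adjusted p = 0.695, and 0.160 with slide as a block). It was 0.13 without TSA array 2, 0.21 without DMSO array 1, 1.04 without TSA array 1 and 1.12 without DMSO array 2. The dimmer probe gave 0.98, 0.95 and 0.55 on the slides and 0.83 ± 0.49 (adjusted p = 0.591). The experiment means of Hhex spanned 1.82, or 3.53-fold (unadjusted p = 0.00137, adjusted p = 0.173), and both probes had the order experiment 2, 3, 1 in each treatment.

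Hnf4a was at the edge of detection. Its brightest probe was above background on 1 TSA array, that of experiment 2, and on DMSO arrays 2 and 3, with levels of -6.76, -3.60 and -6.20 on TSA arrays 1, 2 and 3, and -6.33, -5.49 and -6.46 on the DMSO arrays. The fitted difference of 0.57 ± 0.81 (adjusted p = 0.787) rested on TSA array 2, and was -0.39 without it and -0.08 without both arrays of slide 2. The other Hnf4a probes were above background on 0 and 1 of the 6 arrays and were not tested.

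Dab2 had the smallest span between experiments among the members, on its brighter probe only. It stood at -0.18, 0.15 and -0.36 on TSA arrays 1, 2 and 3, and at -0.98, -0.29 and -0.84 on the DMSO arrays. TSA was higher by 0.80, 0.44 and 0.48 on the slides and by 0.57 ± 0.27 in the fit (1.49-fold, adjusted p = 0.487, and 0.197 with slide as a block), although the lowest TSA array lay below the highest DMSO array. The experiment means spanned 0.53, and 53.6% of tested genes had a larger span. A dimmer Dab2 probe gave 0.86 ± 0.50 (adjusted p = 0.576) and a span of 1.21.

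The height of experiment 2 was measured separately in each treatment, because its TSA array was dim and its DMSO array was not. On the DMSO array the members lay 0.62 to 2.85 above the mean of the other DMSO arrays, with a median of 1.19, against 0.06 over all tested genes. On the TSA array they lay 0.42 to 3.16 above the mean of the other TSA arrays, with a median of 1.42, against 0.37 over all tested genes. Foxa2, Sox17, Gata6 and Hhex were at least 1 log2 unit above in both treatments, as were 2.12% of all tested genes. On the DMSO side alone, 0.0964% of tested genes exceeded Foxa2, 0.117% exceeded Sox17 and 9.13% exceeded Dab2. The number of members with both arrays of experiment 2 on top was 8 or 9 of 10 under the scaling alternatives tried, quantile normalization, median centring, normexp background correction and the authors' table. Foxa2 and Sox17 were called by the limma experiment test when only probes above background on all 6 arrays were tested, where 8 probes were called in all.

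**Figure D3:**
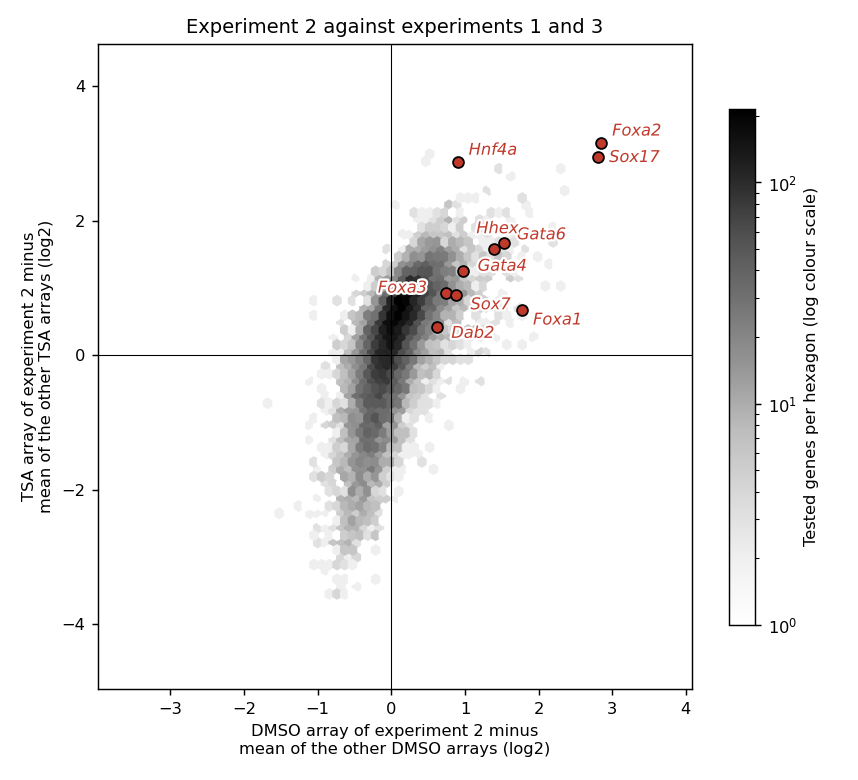
Distance of the TSA array of experiment 2 from the mean of the other TSA arrays (y axis, log2) against the same distance on the DMSO arrays (x axis, log2), for all 14526 tested genes (grey hexagons, darker where more genes fall) and for the endoderm regulators (red points). All 10 regulators lie right of 0 and above 0, Foxa2 and Sox17 at the far upper right, and the grey cloud is spread wider along the y axis of the dim TSA array.

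Other genes of definitive endoderm followed the same order of experiments in part. Of 17 tested, 0 rose or fell in TSA, with a median of 0.40, and in 9 both arrays of experiment 2 lay above the 4 others, against 22.8% of all tested genes. Cer1, a secreted Nodal and BMP antagonist of anterior endoderm, was among the genes with the smallest p for the experiment term, with -3.36, 2.23 and -0.58 on TSA arrays 1, 2 and 3, and -3.08, 2.37 and 0.39 on the DMSO arrays. Cdx2, a hindgut and posterior gene, stood at 0.37, 3.31 and 1.10 on the TSA arrays, and at -1.01, 1.93 and -0.53 on the DMSO arrays. Cdx2 was thus high in experiment 2 and higher in TSA within every experiment (1.46 ± 1.00, adjusted p = 0.626, and 0.0392 with slide as a block). Pyy, a gut hormone gene marking early endoderm, gave 1.03 ± 0.26 (adjusted p = 0.155) with TSA levels of -1.63 to -0.87 and DMSO levels of -2.33 to -2.03. With the slide as a block 2 of the 17 rose, Cdx2 and Mixl1, against 3.19% of all tested genes.

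The signals and regulators that act above endoderm had a median span between experiments of 0.90 over 14 tested genes. Their median treatment difference was 0.29, with 0 risen or fallen (1, Mixl1, rose with slide as a block, against 3.19% of all tested genes). In 7 of these, both arrays of experiment 2 were highest, against 22.8% of all tested genes. Lhx1, a factor of anterior mesendoderm, stood at -1.31, 1.78 and 0.23 on TSA arrays 1, 2 and 3, and at -2.29, 2.17 and 0.07 on the DMSO arrays, an order like that of Sox17. Nodal itself was at 4.48, 4.74 and 3.70 on the TSA arrays and 3.33, 3.33 and 2.80 on the DMSO arrays, with no TSA array below any DMSO array (1.16 ± 0.33, adjusted p = 0.210). Its co-receptor gene Tdgf1 was at 1.26, 0.91 and 1.43 on the TSA arrays and -0.11, 0.29 and 0.97 on the DMSO arrays. Mixl1, a homeobox gene of the streak, was at -2.47, -0.80 and -3.86 on TSA arrays 1, 2 and 3, and at -5.30, -3.47 and -6.14 on the DMSO arrays, with experiment 3 lowest (2.59 ± 0.94, adjusted p = 0.331, and 0.0311 with slide as a block, but a difference of 1.08 with normexp).

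Visceral endoderm effector genes, which encode serum proteins and nutrient receptors, were measured in 11 of the 17 present on the array. Ttr, Apoa1, Apoa4, Fga and Fgb were above background on 0 of 6 arrays, Ihh on 1, and albumin, from the gut and liver list, on 0. The 11 had a median difference of 0.72, with 0 risen or fallen. Amn, which encodes the partner of cubilin, gave 1.84 ± 0.50 (adjusted p = 0.179, and 0.0318 with slide as a block, the 1 gene of the list that rose with it, against 3.19% of all tested genes), at 0.62, 1.21 and -0.40 on TSA arrays 1, 2 and 3, and -1.25, -0.80 and -2.05 on the DMSO arrays. Cubn, for cubilin itself, showed no such difference (-0.17 ± 0.72, adjusted p = 0.935). Both were lowest in experiment 3, and in 3 of the 11 genes both arrays of experiment 2 were highest, a share of 27.3% against 22.8% of all tested genes. Lrp2, for the receptor megalin, was lowest in experiment 2, at 1.48 in TSA and 2.55 in DMSO, against 2.69 or more on the other arrays. Rbp4 and Apoa2, for carriers of retinol and lipids, gave 0.90 ± 0.32 and 1.18 ± 0.45 (adjusted p = 0.332 and 0.367), and Apoa2 gave 0.15 with normexp and 0.32 with the authors' values.

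Genes of primitive and parietal endoderm, which secretes a thick basement membrane, had a median difference of 0.20 over 15 tested, with 0 risen or fallen. In 10 of the 15 both arrays of experiment 2 were highest, against 22.8% of all tested genes, among them Lama1, a laminin chain, at -2.21, -0.50 and -2.60 on TSA arrays 1, 2 and 3, and -2.43, -0.84 and -2.46 on the DMSO arrays. Fgfr2, a fibroblast growth factor receptor gene, gave -1.21 ± 0.33 (adjusted p = 0.182) and Pdgfra, a receptor of primitive endoderm and mesoderm, 1.44 ± 0.64 (adjusted p = 0.463). Neither passed with slide as a block. Of the 8 tested gut and liver genes, Pdx1, the pancreas and duodenum factor, was above background on 3 TSA arrays and 0 DMSO arrays and at least 2.81-fold higher in TSA, a bound against the background of the DMSO arrays (adjusted p = 0.0513, and 0.0311 with slide as a block). The bound holds for the processed signal, since the log2 difference was 1.07 with the authors' values and 0.39 with normexp, both below the 1.49 of the bound. Tff3, a goblet cell peptide, gave 1.04 ± 0.34 (adjusted p = 0.274). Without the block 0 of the 8 rose or fell, and with it 2 rose, Pdx1 and Cdx2, against 3.19% of all tested genes.

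Foxa2 also marks the node, notochord and floor plate, and all 8 tested genes of that axial list had both arrays of experiment 2 above the 4 others, against 22.8% of all tested genes. This count was 8 under each scaling alternative tried. Shh, the secreted signal of notochord and floor plate, was at -7.53, -3.49 and -4.83 on TSA arrays 1, 2 and 3, and at -7.08, -2.46 and -3.60 on the DMSO arrays, and was not above background on the arrays of experiment 1. Gsc, an organizer gene, was at -0.99, 1.68 and -1.16 on the TSA arrays and -1.98, 0.95 and -1.24 on the DMSO arrays. Between treatments 0 of the 8 passed, also with slide as a block, and the list median was 0.16. The lists share genes, since Mixl1, Lhx1 and Eomes stand in both the definitive endoderm list and the list of upstream regulators, and T and Gsc in more than 1 list. They were chosen with earlier results of these data known, so their counts describe the arrays and do not test them.

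**Figure D4:**
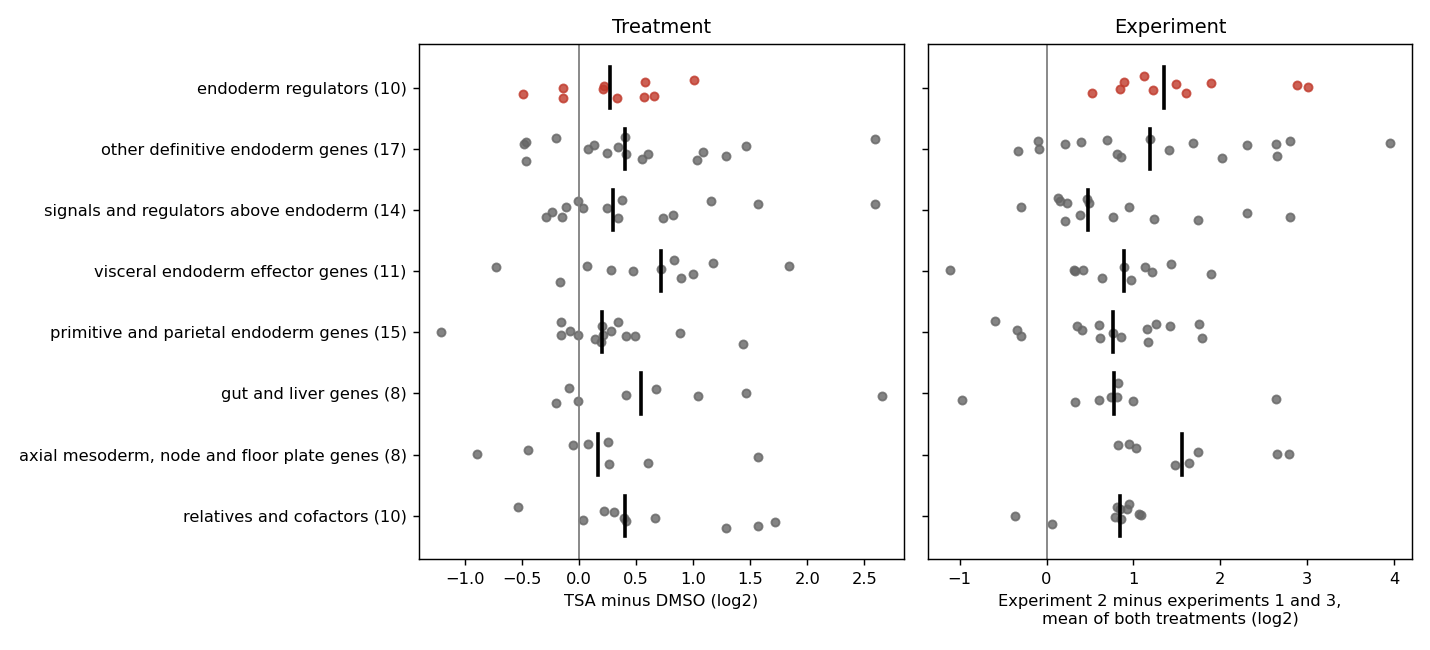
TSA minus DMSO (left, log2) and the distance of experiment 2 from experiments 1 and 3 averaged over both treatments (right, log2) for the endoderm regulators (red) and the genes of 7 related lists (grey), with the median of each list as a black bar and the number of tested genes in brackets. The regulators have a median of 0.27 on the left and lie wholly above 0 on the right, as do the axial genes.

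The genes closest in profile to the leading members were found by the root mean square difference of levels over the 6 arrays, each gene centred on its own mean. Nearest to Sox17 were Dkk1, a secreted Wnt antagonist of anterior visceral endoderm and prechordal mesendoderm, at 0.19, the transcript Lhx1os, which runs beside Lhx1, at 0.29, and Lhx1 at 0.31. Dkk1 stood at -1.42, 1.92 and -0.32 on TSA arrays 1, 2 and 3, and at -2.02, 1.26 and -0.15 on the DMSO arrays. Nearest to Foxa2 were Sparcl1, a matricellular protein gene, at 0.32, Egflam, for the matrix protein pikachurin, at 0.43, and Dynlrb2, a dynein light chain gene of cilia, at 0.49. Sox17 was at 0.43 from Foxa2, and 2 tested genes were closer, Sparcl1 and Egflam. Nearest to Gata6 were Trim67 at 0.16, Efnb1, an ephrin, at 0.17 and Amot, for the junction protein angiomotin, at 0.20. These likenesses rest mainly on the difference between experiments and are descriptions of 6 arrays.

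Markers fixed for other cell types were read beside the members. Of 6 definitive endoderm markers all 6 were tested, and their summed level, in multiples of the 75th percentile, was 7.87 to 34.7 on the TSA arrays and 11.8 to 33.7 on the DMSO arrays, highest in experiment 2 in both; Foxa2 and Sox17 are among them. Of 6 trophoblast markers 5 were tested, among them Cdx2, summing to 3.68 to 16.6 in TSA and 2.07 to 8.63 in DMSO, and Elf5 was above background on 2 TSA arrays and 0 DMSO arrays. Of 10 endothelium and blood markers 8 were tested, summing to 2.20 to 4.11 in TSA and 2.04 to 3.87 in DMSO, with Cdh5 above background on 0 arrays. Of 8 heart markers 7 were tested, summing to 2.47 to 4.53 in TSA and 1.64 to 1.82 in DMSO, with Tbx5 above background on 0 arrays. The parietal endoderm markers, 6 of 7 tested, summed to 19.1 to 38.9 in TSA and 22.6 to 32.3 in DMSO, again highest in experiment 2. The visceral endoderm markers, 5 of 7 tested, summed to 5.67 to 9.0 in TSA and 7.05 to 12.1 in DMSO, a sum that was lowest in experiment 2 and is carried by Lrp2. The median level of the same 5 markers was instead highest in experiment 2, at -1.60, -1.23 and -3.16 on TSA arrays 1, 2 and 3, and at -1.36, -0.97 and -3.15 on the DMSO arrays. All 6 neural progenitor markers and all 6 pluripotency markers were above background on every array. The neural markers summed to 89.8 to 113 in TSA and 72.8 to 101 in DMSO, although their median TSA minus DMSO was -0.40. Of these 6 neural markers, 4 were lower in TSA on all 3 slides and 2 were higher. The pluripotency markers summed to 201 to 278 in TSA and 166 to 179 in DMSO. The part of any of these cell types in the members' levels was not tested.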

How the data were processed

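Total RNA of 3 TSA and 3 DMSO samples was measured on single-colour (Cy3) Agilent arrays. Per the file headers, the deposited intensity values come from Agilent Feature Extraction 10.7.3.1 (10.7 in the submitters' processing notes), background-subtracted within the array and not scaled between arrays. The authors' deposited log2 table, with an unstated normalization, a shared maximum of 19.1 and column medians of 6.31 to 6.34, tracked log2 of the signal (lowest correlation 0.982) and served as an alternative.

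Control and outlier-flagged spots (57 to 84 per array) were left out, spots of a probe averaged, and the 75th percentile subtracted. Probes well above background on at least 3 of 6 arrays were tested (28158 of 41174), 15 of the 19 member probes among them. RefSeq and Ensembl identifiers named 27479 probes through the reference table, 0 had several genes and 13695 none; the tested probe of highest mean stood for its gene. No member value was missing on any array. Treatment was tested with limma 3.58.1 in R 4.3.3 (two-sided, Benjamini-Hochberg over all tested probes, threshold 0.05), and the experiment by an F test beside treatment; both were tested on simulated data. The labels call the samples independent experiments, and the p-values of the main treatment fit rest on the spread between them. Those of the experiment test and of the fit with slide as a block rest on what remains after treatment and slide are fitted. Deviations of a TSA and a DMSO array from their group means correlated at 0.484 to 0.614 on the same slide and at -0.568 to 0.0916 between slides, so slide also served as a block in a further fit. Its result is given where it changed a call and beside some other values. With 3 arrays per group, their number limits the precision. A bound sets the mean of the bright arrays against the lowest signal well above background on the dim ones. The members, lists and tests were chosen with earlier results of these data known. Named are all members, the 3 list genes with the smallest p for treatment and the 2 for the experiment, some of them printed only as part of a count, and the 3 nearest profiles. Albumin, Ttr, other undetected genes, Lrp2 and Cdx2's block result were added after their values were seen. Tables and figures were made in Python 3.11.15 (pandas 2.3.3, numpy 2.4.6, matplotlib 3.10.9). Alternatives were quantile normalization, median centring, normexp (offset 50) on median spot signals, the authors' table, 2 other filters, outlier spots kept, an intensity trend with robust moderation, the mean over probes, leaving out each array, single slides and, added after seeing the data, slide 2 left out.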

Additional observations from a re-analysis of the deposited data

How the results depend on the processing

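No member passed for treatment under any alternative run (lowest adjusted p = 0.0657, Foxa3 with the replicate block), and the block changed no member's call. Without slide 2, 0 of all 14526 tested genes rose and 0 fell, so that alternative cannot set the members apart from other genes. Signs of single members were less stable: Gata6 turned to 0.060 with the mean over probes and Hnf4a to -0.085 without slide 2. Leaving out 1 array at a time gave differences of -0.40 to 0.92 for Foxa1, -1.55 to 0.46 for Foxa2, -0.77 to 1.15 for Sox17, -0.44 to 0.15 for Sox7, -0.21 to 0.58 for Gata4, -0.83 to 0.43 for Gata6, -0.39 to 1.19 for Hnf4a, -1.07 to 0.32 for Foxj1, -2.25 to 0.23 for Shh, 0.70 to 1.26 for Foxa3, 0.13 to 1.12 for Hhex and 0.43 to 0.78 for Dab2. With normexp the difference was 0.025 for Foxa1, 0.0065 for Gata4, 0.15 for Hnf4a, -0.054 for Sox7, 0.10 for Sox17 and 0.39 for Foxa3. It changed less for Foxa2 (-0.54), Gata6 (-0.14), Hhex (0.49) and Dab2 (0.47). Normexp also lowered the size of other named differences by over 1.5 times, to 0.64 for Pyy, 0.24 for Tff3, 0.69 for Pdgfra, 0.52 for Sox18 and -0.67 for Fgfr2, and the cause was not tested. Of the 73 tested genes in the related lists, 5 rose with the replicate block, against 3.19% of all tested genes. With the mean over probes 1 rose, and with an array left out 0 to 1, counts given without a share over all genes. Fewer samples were tested with an array left out, and the cause of the other changes was not tested.

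The median difference of the members was 0.064 with normexp, 0.12 in the authors' table, 0.14 without slide 2, 0.14 on slide 3 and -0.30 to 0.83 with an array left out. That of the visceral effectors was 0.12 with normexp, 0.32 in the authors' table, 0.38 with probes above background on all 6 arrays, 0.47 with the mean over probes, 0.36 without slide 2, 0.50 on slide 3 and 0.18 to 1.13 with an array left out. Definitive endoderm genes gave 0.16 on slide 3 and 0.061 to 0.78 with an array left out, upstream regulators -0.0094 on slide 1 and -0.10 to 0.53, and primitive and parietal genes -0.026 on slide 3 and -0.25 to 0.43. Gut and liver genes gave 0.24 with normexp, 0.81 on slide 2 and 0.43 to 0.77 with an array left out, axial genes 0.41 on slide 2 and -0.34 to 0.39, and relatives and cofactors 0.17 with normexp, 0.61 on slide 2 and 0.18 to 0.60. The experiment test called 2 members with probes above background on all 6 arrays, where fewer probes were tested, and 2 to 9 with an array left out. Dim probes, Gata4 and Hnf4a among them, are limited by signal over background.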
